A study of Mus musculus with 8 samples.

Results

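Collagen chain genes were followed across 4 groups of mouse liver RNA in which a genotype label was crossed with ligation of the bile duct (BDL), surgery after which bile backs up and the liver scars. The members were all genes of the count table whose symbol consists of Col, a number, the letter a and a number, which gave 44 of 24982 genes. By the textbook classes of collagen they were 11 fibrillar chains, 6 basement membrane chains, 6 beaded-filament chains, 9 FACIT chains (fibril-associated collagens with interrupted triple helices) and 12 others. After a filter on low counts 35 of the 44 were tested, among 14147 genes in all.

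The RNA was collected from liver with the RiboTag method, in which Cre recombinase switches on a tag on ribosomes so that the RNA they carry can be pulled out of a tissue, and the labels give the cell type as myeloid. All 8 libraries came from mice with LysM-Cre, which drives recombination in the myeloid lineage (monocytes, macrophages, neutrophils), and the RiboTag allele. LysM-Cre:Ribotag mice, here called wild type, were sampled as controls (2 libraries) and 17 days after BDL (2 libraries). LysM-Cre:Hmoxflfl:Ribotag mice carry in addition a floxed allele of Hmox1, the gene of the heme-degrading enzyme heme oxygenase-1 (HO-1), and were likewise sampled as controls (2 libraries) and 17 days after BDL (2 libraries). The study asked what HO-1 in myeloid cells does in liver injury and fibrosis. Levels are given as CPM, counts per mega-count (M) of library size after scaling by trimmed means of M-values (TMM). Hmox1 RNA stood at 6.22 and 7.46 CPM in wild-type controls and 22.5 and 29.9 CPM in controls labelled Hmoxflfl (adjusted p = 0.00434 by edgeR), and at 26.05 and 23.97 against 72.3 and 95.5 CPM after BDL (adjusted p = 0.0191). It was higher where the label gives a deletion, and counts over the whole gene do not separate the floxed part, so the label is kept as a label: these groups are named by it, as libraries labelled Hmoxflfl. Lyz2, the gene that holds LysM-Cre, was at 11.6 and 8.04 CPM in wild-type controls and 0.128 and 0.212 CPM in controls labelled Hmoxflfl, and at 27.3 and 13.2 against 0.155 and 0.665 CPM after BDL (adjusted p = 0.00123 and 0.00156).

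Collagens are built of polypeptide chains wound into a triple helix, either copies of one chain or a mixture of chains from different genes. Fibrillar collagens form the tensile cables of scar and tendon, type IV collagen forms the sheet under epithelia and around vessels, type VI forms beaded filaments around cells, and FACIT collagens decorate the surface of fibrils. In the liver most fibrillar collagen is made by stellate cells and portal fibroblasts once they turn into myofibroblasts, and not by macrophages or hepatocytes.

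Library totals ran from 9.81 to 40.9 M counts, of which the ribosomal precursor RN45S took 10.3% to 66.8%, and the members together had 33166 to 155478 counts per library. The second BDL library labelled Hmoxflfl was the shallowest, with 3.25 M counts other than RN45S, and the first wild-type BDL library was the only female one. RNA of cells other than myeloid cells was present throughout: the 10 hepatocyte markers, such as Alb, summed to 35196 to 60338 counts per M counts besides RN45S, whereas the sum was 415 to 1448 for 10 markers of Kupffer cells, the resident macrophages. Ly6c2, a marker of inflammatory monocytes, was at 0 to 0.309 CPM. The 10 monocyte and macrophage markers that include it nonetheless summed to 43.5 to 73.5 per M in controls and 359 to 1724 after BDL. They also include Spp1, which is on the list of bile duct cell markers too, and its part in these sums was not tested. In such bulk RNA a difference in the number of cells of a type and a difference in RNA per cell cannot be told apart. The labels do not say whether the 2 libraries of a group came from separate animals. In wild type after BDL they did, since only the first of them was female. For the other groups this is not known, so p-values may measure in large part a technical spread.

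Per length of transcript, Col18a1 led the collagens of the unligated liver. It encodes a basement membrane collagen whose end fragment is endostatin, and it is known to be made by hepatocytes. On the FPKM scale (fragments per kilobase of transcript per M mapped fragments, the authors' values) Col18a1 stood at 166 and 185 in wild-type controls, 92.4 and 109 in wild type after BDL, 61.5 and 165 in controls labelled Hmoxflfl and 105 and 50.6 after BDL in libraries labelled Hmoxflfl. It was the highest member in each of the 4 controls and in both wild-type BDL libraries. In the BDL libraries labelled Hmoxflfl it lay below Col3a1 (106 and 63.7), by little in the first, and in the second also below Col1a1 (87.9 and 52.99). As a share of the summed collagen FPKM of a library it made up 64.1% and 64.1% in wild-type controls and 30.04% and 31.9% after BDL, and 63.8% and 55.9% and then 19.3% and 17.2% in the libraries labelled Hmoxflfl. All 4 control libraries lay above all 4 BDL libraries in this share.

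The share held by Col1a1, Col1a2 and Col3a1, the chains of the type I and type III fibrils of scar, went the other way. Together they made up 6.65% and 6.68% of summed collagen FPKM in wild-type controls and 38.6% and 40.4% after BDL. In the libraries labelled Hmoxflfl the shares were 5.29% and 8.48% in controls and 45.3% and 50.7% after BDL. In wild-type controls the ranks 2 and 3 in mean FPKM were held by Col5a3 (17.4 ± 6.87, SD, n = 2) and Col27a1 (12.5 ± 2.23), minor fibrillar chains, ahead of Col4a1 (12.1 ± 0.738) and Col3a1 (11.4 ± 0.370). Neighbours in this order overlapped, and the order differed between the 2 libraries, while Col5a3 lay above Col3a1 in both. After BDL the 4 leading members of every library were Col18a1, Col3a1, Col1a1 and Col1a2, of which Col1a2 was the lowest. RN45S took a different part of each library, and its part in differences of FPKM between libraries was not tested.

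The other 9 members were too sparse to test. Col26a1 had no count in any library, which allows at most 3 counts in each library, counting error only. Col2a1, Col9a1, Col9a2, Col19a1 and Col10a1, chains of cartilage and other specialised matrices, had 0 to 9 counts per library. Col6a4, Col17a1, a transmembrane collagen of epithelial anchoring plaques, and Col28a1 had 0 to 15. Among the tested members Col22a1 (0 to 12 counts per library) and Col8a2 (2 to 20) were the sparsest.

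**Figure D1:**
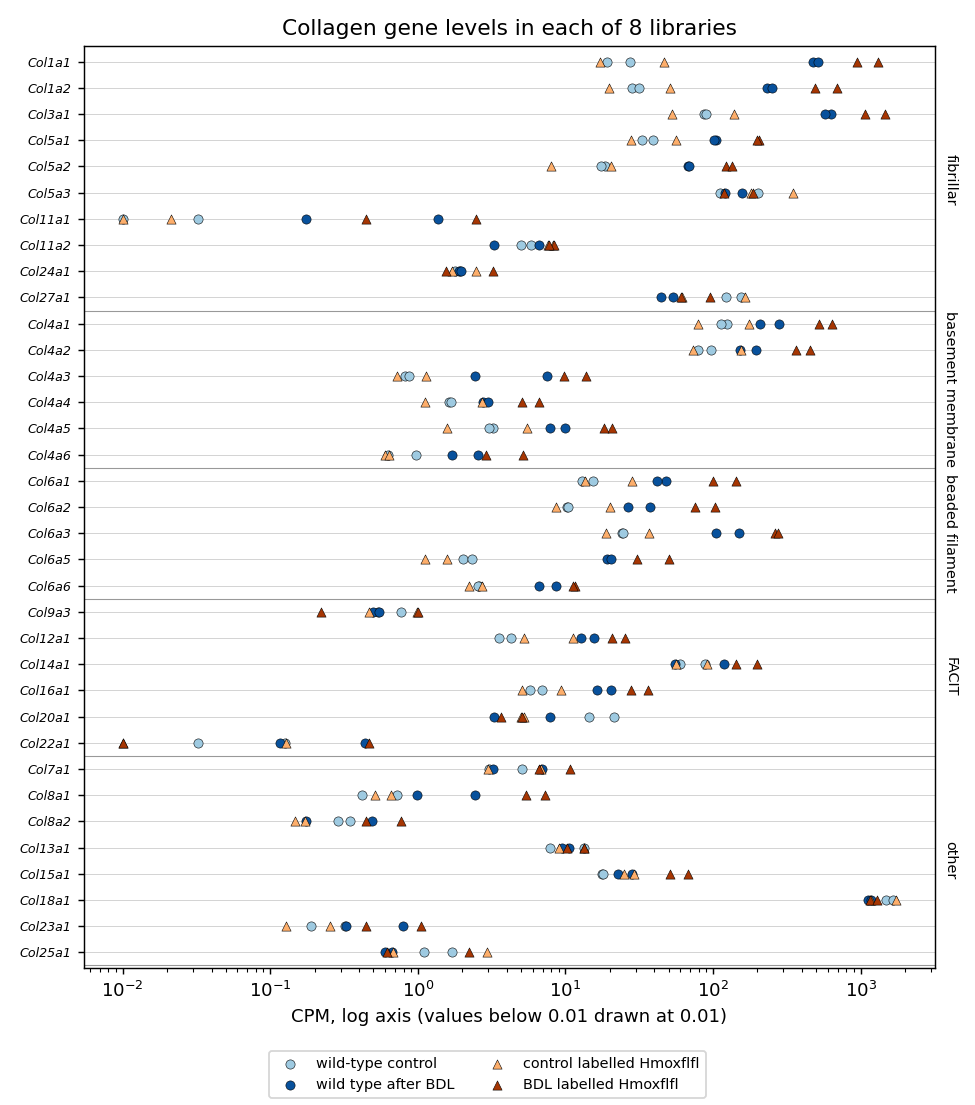
Level of each of the 35 tested collagen genes in each of the 8 libraries, on a log axis of CPM (TMM-scaled counts per M), with genes grouped by class. Circles are wild-type libraries, triangles are libraries labelled Hmoxflfl, and darker symbols are BDL libraries. For Col1a1 the 4 BDL libraries sit between 475 and 1321 CPM and the 4 controls between 17.2 and 46.9 CPM.

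The first pair of comparisons asked how ligation changed the collagen genes within each genotype label. In wild type 17 of the 35 tested members rose and 2, Col27a1 and Col20a1, fell at an adjusted p under 0.05, by edgeR's quasi-likelihood test with Benjamini-Hochberg adjustment over all tested genes. Of all genes tested 11.8% were called higher and 6.59% lower. With the Hmoxflfl label 23 of 35 members rose and 0 fell, against 15.1% called higher and 12.4% lower of all genes. The median log2 fold change of the members was 1.43 in wild type and 2.09 in the libraries labelled Hmoxflfl, and that of all genes 0.02 and -0.03. The 17 members that rose in wild type also rose in the libraries labelled Hmoxflfl, the other 6 there being Col4a1, Col4a2, Col4a4, Col14a1, Col15a1 and Col23a1. The 17 include Col11a1, which passed the low-count filter only through its BDL libraries. Col23a1, among the other 6, would not have passed it without its BDL libraries. The same holds for Col22a1 and Col8a2, which were not called in either genotype. The value of Col22a1 (2.09 ± 1.17, SE) is the members' median in the libraries labelled Hmoxflfl. At an unadjusted p under 0.05, too, 0 members were lower in those libraries, against 19.3% of all genes, and by DESeq2 0 were called lower.

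The wild-type count rests on both controls. Without wild-type control 1 it was 10 (9 higher and 1 lower), and without wild-type control 2 it was 12, all higher. The calls of Col1a1, Col1a2, Col3a1, Col5a2, Col6a1, Col6a3, Col6a5, Col6a6 and Col12a1 held in each of the 8 fits that left out 1 library. Under the Hmoxflfl label 18 of the 23 calls held in all 8 fits. The 5 others were Col11a1, Col4a4, Col12a1, Col14a1 and Col23a1, and the count ran from 19 to 24 over the fits. All 5 tested beaded-filament chains were called higher in both genotypes, and all 6 basement membrane chains were called higher in the libraries labelled Hmoxflfl.

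**Figure D2:**
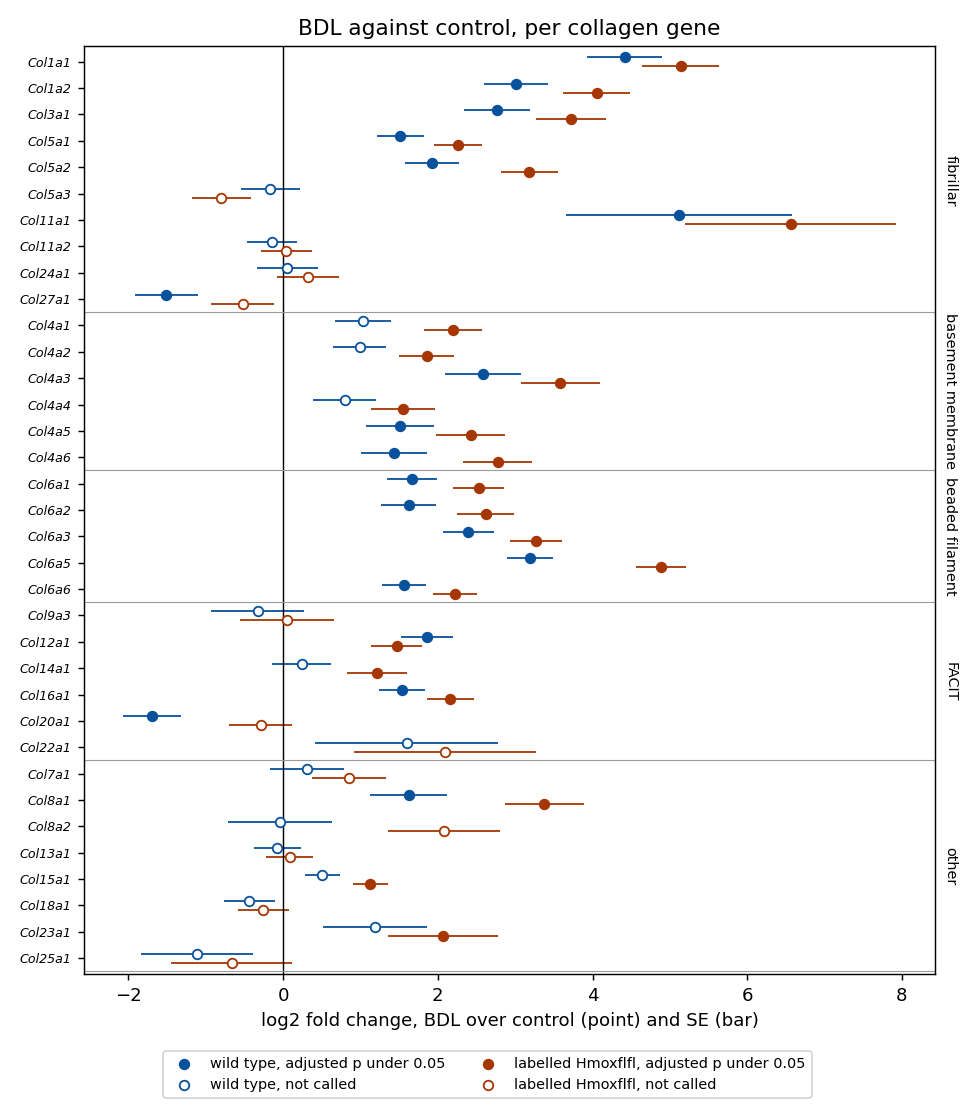
Log2 fold change of BDL over control (point) with its SE (bar) for the 35 tested collagen genes, by class, in wild type (blue) and in libraries labelled Hmoxflfl (brown). Filled points have an adjusted p under 0.05. Type I, III, V and VI chains lie right of 0 in both genotypes, except Col5a3, and Col27a1 and Col20a1 lie left of 0, filled in wild type alone.

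Fibrillar chains included the largest changes. Of 10 tested, 6 rose in each genotype, Col11a1 with that limit among them, and the class median of the log2 fold changes was 1.72 in wild type and 2.72 in the libraries labelled Hmoxflfl. Col1a1 (ENSMUSG00000001506, chr11:94936224-94953042, plus strand, build mm10) encodes the alpha 1 chain of type I collagen, the main protein of scar. It stood at 19.03 and 27.6 CPM in wild-type controls and at 475 and 518 CPM after BDL, a log2 fold change of 4.41 ± 0.48, adjusted p = 0.000286 (SE, n = 2 per group, here and below). Among libraries labelled Hmoxflfl it went from 17.2 and 46.9 CPM to 948 and 1321 CPM (5.14 ± 0.50, adjusted p = 9.26e-05). Every BDL library lay above every control.

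Col1a2, the partner chain of type I collagen (chr6:4504814-4541544, plus strand), went from 28.3 and 31.8 CPM to 233 and 250.1 CPM in wild type (3.01 ± 0.41, adjusted p = 0.000765). The change in the libraries labelled Hmoxflfl was from 19.7 and 51.4 to 492 and 693 CPM (4.06 ± 0.43, adjusted p = 0.000143). Col3a1, whose chains form the homotrimer of type III collagen in soft tissue and early scar, lies on chr1:45311538-45349706, plus strand. It rose from 87.04 and 90.2 to 627 and 574 CPM in wild type (2.76 ± 0.43, adjusted p = 0.00152) and from 52.7 and 139 to 1064 and 1465 CPM in the libraries labelled Hmoxflfl (3.72 ± 0.45, adjusted p = 0.000279). Neither gene had overlapping groups. In both, the first control labelled Hmoxflfl was the lowest of the 8 libraries and the second was the highest of the 4 controls, and RN45S took 55.6% and 22.6% of the counts of these 2 libraries; its part in the difference was not tested.

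The chains of type V collagen, which starts fibrils and limits their width, were called in 2 of 3 members. Col5a1 and Col5a2 rose in both genotypes. Col5a1 went from 33.003 and 39.3 to 104 and 102 CPM in wild type (1.51 ± 0.30) and from 27.9 and 55.8 to 204 and 198 CPM in the libraries labelled Hmoxflfl (2.26 ± 0.31). For Col5a2 the values were 18.5 and 17.4 and then 67.6 and 68.6 CPM (1.92 ± 0.35), and 7.95 and 20.2 and then 123 and 136 CPM (3.18 ± 0.36). The adjusted p-values of these 4 changes ran from 0.000233 to 0.00562 by edgeR, and the call of Col5a1 in wild type was lost without wild-type control 1 (adjusted p = 0.0751). Col5a3, the remaining chain, overlapped between control and BDL in both genotypes: 112 and 200.3 against 121 and 158 CPM in wild type (-0.16 ± 0.38, adjusted p = 0.809) and 180.2 and 351 against 185 and 119 CPM in the libraries labelled Hmoxflfl (-0.80 ± 0.38, adjusted p = 0.141).

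Col11a1, a chain of type XI collagen best known from cartilage, was almost absent from controls, with 1 count in the 2 wild-type controls and 1 count in the 2 controls labelled Hmoxflfl. After BDL it had 6 and 25 counts in wild type and 64 and 2 in the libraries labelled Hmoxflfl. Relative to library size this is a ratio of 37.2 (exact 95% Poisson interval 6.19 to 1514) in wild type and 154 (26.6 to 6155) in the libraries labelled Hmoxflfl, for counting error only. The edgeR test called it higher in both (adjusted p = 0.0324 and 0.00583), although the BDL libraries of a group differed from each other as well. It passed the low-count filter through the BDL libraries, and the wild-type call was lost when wild-type control 1, wild-type control 2 or wild-type BDL 2 was left out (adjusted p up to 0.204), and the other call without the first BDL library labelled Hmoxflfl (adjusted p = 0.231).

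Among the fibrillar chains Col27a1 alone fell. This chain of thin fibrils in cartilage and other tissues lies on chr4:63214004-63334991, plus strand. It went from 123 and 156 CPM to 44.4 and 53.8 CPM in wild type (-1.51 ± 0.41, adjusted p = 0.0288), with no overlap. The call was lost in each of the 4 fits that left out a wild-type library (adjusted p up to 0.137). In the libraries labelled Hmoxflfl the values were 61.2 and 165 CPM in controls and 96.02 and 61.1 CPM after BDL (-0.52 ± 0.41, adjusted p = 0.361), and the groups overlapped. Col11a2 and Col24a1 gave log2 fold changes between -0.15 and 0.32, with adjusted p-values of 0.583 to 0.946.

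Stretches before the annotated start are shown for members that rose in both genotypes (Col3a1, Col5a1, Col6a5) and for the pair that fell in wild type (Col20a1, Col27a1), together with the gap between the head-to-head pair Col4a4 and Col4a3. They are the 120 bases before the start, and 71 bases for the gap, from RefSeq on GRCm38.p6, written 5′ to 3′ on the strand of the gene (of Col4a4 for the gap). Capitals mark matches on either strand to 4 motifs. The RefSeq start of Col27a1 lies inside the GENCODE gene, 3′ of its first base. The first motif is the letters TATAAA of the classical core promoter element. The next are CCAAT, read by the factor NF-Y, and GGGCGG, read by Sp1 and its relatives. The last is CAGAC, to which the SMAD factors of TGF-β signalling bind.
Col3a1, chr1:45311418-45311537, plus strand: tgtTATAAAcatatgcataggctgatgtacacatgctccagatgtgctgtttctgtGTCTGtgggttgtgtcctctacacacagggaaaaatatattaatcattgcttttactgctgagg
Col5a1, chr2:27886305-27886424, plus strand: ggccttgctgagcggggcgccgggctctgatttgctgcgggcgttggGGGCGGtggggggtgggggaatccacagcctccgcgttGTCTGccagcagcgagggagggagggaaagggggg
Col6a5, chr9:105960644-105960763, minus strand: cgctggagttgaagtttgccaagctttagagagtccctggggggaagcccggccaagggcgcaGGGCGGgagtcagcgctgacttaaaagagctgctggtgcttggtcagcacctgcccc
Col20a1, chr2:180986415-180986534, plus strand: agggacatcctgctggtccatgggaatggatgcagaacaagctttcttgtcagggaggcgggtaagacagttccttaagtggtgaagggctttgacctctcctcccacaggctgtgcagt
Col27a1, chr4:63215292-63215411, plus strand: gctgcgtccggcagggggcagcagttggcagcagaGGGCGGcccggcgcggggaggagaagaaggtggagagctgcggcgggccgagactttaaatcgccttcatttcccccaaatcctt
Col4a4 to Col4a3, chr1:82586850-82586920, minus strand: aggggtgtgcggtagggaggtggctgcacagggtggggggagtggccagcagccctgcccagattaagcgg

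Promoters of 35 of the 44 members were found in the RefSeq table, with 38 windows of 250 bases before a start. In these windows TATAAA was found in 5 (13.2%), against 12.4% of all 32851 windows of the same length, counting either strand. CCAAT was found in 13 (34.2% against 33.8%) and CAGAC in 17 (44.7% against 42.2%). GGGCGG was found in 22 (57.9% against 32.7%). Of the stretches shown, those of Col3a1 and Col5a1 hold a GTCTG, the reverse complement of CAGAC, that of Col3a1 also holds TATAAA, and those of Col5a1, Col6a5 and Col27a1 hold GGGCGG. These are matches of letters and say nothing about binding.

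All 6 type IV chains of the basement membrane lay higher in both BDL libraries than in both controls of the same genotype, as did 31.5% of all genes in wild type and 31.9% in the libraries labelled Hmoxflfl. In wild type 3 were called, Col4a3, Col4a5 and Col4a6, and in the libraries labelled Hmoxflfl all 6, with class medians of 1.24 and 2.31 for the log2 fold change. Col4a1 and Col4a2 encode the chains of the common network found in nearly all basement membranes, and the first of them went from 125 and 113 to 282 and 207 CPM in wild type (1.04 ± 0.36, adjusted p = 0.0691). With the Hmoxflfl label Col4a1 rose from 79.1 and 177 to 527 and 644 CPM (2.19 ± 0.37, adjusted p = 0.0018). Col4a2 had 96.3 and 79.8 and then 196 and 153 CPM (0.99 ± 0.34, adjusted p = 0.0679), and 72.7 and 154 and then 365 and 456 CPM (1.85 ± 0.35, adjusted p = 0.00317). The 2 genes start head to head on chromosome 8, with their starts 21 bases apart (chr8:11198423-11312826, minus strand, and chr8:11312805-11449287, plus strand).

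Col4a3, Col4a4 and Col4a5, the chains of the specialised network of kidney filters, were far lower in counts. Col4a3 had 0.816 and 0.868 CPM in wild-type controls and 7.51 and 2.46 CPM after BDL (2.58 ± 0.50, adjusted p = 0.0045), the call being lost without wild-type control 1 (adjusted p = 0.0518). Under the Hmoxflfl label it rose from 0.727 and 1.14 to 9.79 and 13.7 CPM (3.58 ± 0.51, adjusted p = 0.000634). Col4a4, whose start lies 72 bases from that of Col4a3 on the other strand of chromosome 1, went from 1.63 and 1.67 to 2.75 and 3.003 CPM (0.79 ± 0.41, adjusted p = 0.208) and from 1.11 and 2.71 to 5.11 and 6.65 CPM (1.55 ± 0.42, adjusted p = 0.0176). The latter call was lost without the first control or the second BDL library labelled Hmoxflfl (adjusted p up to 0.121).

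Col4a5 and Col4a6, an X-linked head-to-head pair whose starts lie 1309 bases apart, rose by 1.50 ± 0.44 and 1.43 ± 0.43 on the log2 scale in wild type (adjusted p = 0.036 and 0.0378) and by 2.43 ± 0.45 and 2.77 ± 0.45 in the libraries labelled Hmoxflfl (adjusted p = 0.00314 and 0.00135). Col4a5 went from 3.23 and 3.02 to 7.83 and 9.99 CPM in wild type and from 1.58 and 5.50 to 20.6 and 18.4 CPM in the libraries labelled Hmoxflfl. In wild type the call of Col4a5 held in 2 of the 8 fits that left out 1 library and that of Col4a6 in 3 of 8 (adjusted p up to 0.178 and 0.28). Of the exonic bases of Col4a3, 5.65% overlap an antisense gene, C430014B12Rik, and whether counting used the strand is not given in the sources used here.

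Type VI collagen, which forms beaded filaments around cells, changed in every tested chain. All 5 tested chains rose in both genotypes, with a class median of 1.66 in wild type and 2.62 in the libraries labelled Hmoxflfl on the log2 scale. Col6a1 and Col6a2, neighbours on chromosome 10, and Col6a3 form the classical molecule. Col6a3 rose from 24.1 and 24.4 to 149 and 106 CPM in wild type (2.39 ± 0.33, adjusted p = 0.000729) and from 18.8 and 37.1 to 263 and 278 CPM in the libraries labelled Hmoxflfl (3.27 ± 0.34, adjusted p = 0.000123). Col6a1 went from 15.3 and 13.1 to 48.1 and 41.9 CPM (1.66 ± 0.32, adjusted p = 0.00479) and from 13.5 and 28.2 to 99.9 and 142 CPM (2.53 ± 0.33, adjusted p = 0.000449). For Col6a2 the log2 fold changes were 1.62 ± 0.36 and 2.62 ± 0.37, and the first of these calls was lost without wild-type control 1, wild-type control 2 or wild-type BDL 1 (adjusted p up to 0.0838).

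Col6a5, a chain that resembles Col6a3 and can take its place, had the steepest rise of the class and the smallest p-values of all members. It lies on chr9:105856078-105960643, minus strand. Wild-type controls had 2.01 and 2.32 CPM and wild-type BDL libraries 19.3 and 20.3 CPM (3.19 ± 0.30, adjusted p = 0.000102). Controls labelled Hmoxflfl had 1.11 and 1.59 CPM, below both wild-type controls, and the BDL libraries with that label 50.3 and 30.6 CPM, above both of wild type (4.89 ± 0.32, adjusted p = 8.41e-06). Col6a6, its neighbour on the same strand, rose by 1.56 ± 0.28 in wild type and 2.22 ± 0.29 in the libraries labelled Hmoxflfl on the log2 scale.

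FACIT chains were split. Of 6 tested, 2 rose and 1 fell in wild type, and 3 rose in the libraries labelled Hmoxflfl, with class medians of 0.89 and 1.34. These medians include the uncalled Col22a1 (1.59 ± 1.18 and 2.09 ± 1.17), which passed the low-count filter only through its BDL libraries. Col12a1, which binds type I fibrils under tension, went from 4.30 and 3.54 to 15.6 and 12.8 CPM in wild type (1.86 ± 0.34, adjusted p = 0.00326). Among libraries labelled Hmoxflfl it went from 5.26 and 11.3 to 25.2 and 20.6 CPM (1.47 ± 0.33, adjusted p = 0.00785), a call lost without the first control or the first BDL library of that label (adjusted p up to 0.0652). Col16a1 rose by 1.54 ± 0.30 and 2.16 ± 0.30 on the log2 scale, the first of these calls being lost without wild-type control 1 (adjusted p = 0.062). Col14a1, a fibril-binding chain known from fibroblasts, was the most abundant of the class. It had 88.9 and 59.3 CPM in wild-type controls against 119 and 55.6 CPM after BDL (0.24 ± 0.38, adjusted p = 0.71), and 56.2 and 91.4 against 144 and 200.3 CPM in the libraries labelled Hmoxflfl (1.22 ± 0.39, adjusted p = 0.0379). The latter call was lost without the first control or either BDL library of that label (adjusted p up to 0.236).

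Col20a1 was the 1 FACIT chain that fell. Wild-type controls had 14.4 and 21.4 CPM, and all of the other 6 libraries lay lower, between 3.30 and 7.92 CPM. The fall on BDL in wild type was -1.70 ± 0.38, adjusted p = 0.00971, and it was lost without wild-type control 2 (adjusted p = 0.085). In the libraries labelled Hmoxflfl the groups, 5.001 and 5.25 and 3.68 and 5.10 CPM, overlapped (-0.29 ± 0.41, adjusted p = 0.623). The gene lies on chr2:180986535-181018363, plus strand. Col9a3 and Col22a1 were not called in either genotype, and 6.07% of the exonic bases of Col9a3 overlap the antisense gene Tcfl5.

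Of the 8 tested members outside these classes, 1 rose in wild type and 3 in the libraries labelled Hmoxflfl. The share in wild type (12.5%) was close to the 11.8% of all genes. Of the 3, Col23a1 would not have passed the low-count filter without its BDL libraries. Col8a1, which forms networks in vessel walls, went from 0.722 and 0.418 to 2.46 and 0.983 CPM in wild type (1.63 ± 0.50, adjusted p = 0.0407), a call that held in 1 of the 8 fits without 1 library (adjusted p up to 0.396). With the Hmoxflfl label it went from 0.513 and 0.656 to 5.42 and 7.31 CPM (3.38 ± 0.50, adjusted p = 0.000871) and was called in all 8. Col15a1, a multiplexin next to the basement membranes of vessels and muscle, had 17.8 and 18.04 and then 28.2 and 22.7 CPM in wild type (0.51 ± 0.22, adjusted p = 0.137), and rose from 29.1 and 25.04 to 51.2 and 67.4 CPM in the libraries labelled Hmoxflfl (1.13 ± 0.22, adjusted p = 0.00412). Col23a1, a transmembrane collagen with 2 to 27 counts per library, had a log2 fold change of 1.19 ± 0.67, adjusted p = 0.254 in wild type and 2.06 ± 0.71, adjusted p = 0.0494 in the libraries labelled Hmoxflfl, the latter held in 2 of 8 such fits (adjusted p up to 0.592).

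Col18a1 was not called. It had 1483 and 1648 CPM in wild-type controls and 1131 and 1181 CPM after BDL, both lower, without being called (-0.44 ± 0.33, adjusted p = 0.399). Under the Hmoxflfl label the groups overlapped, at 1179 and 1746 and 1161 and 1290.1 CPM (-0.26 ± 0.33, adjusted p = 0.592). Its lower share of collagen FPKM after BDL came with a rise of other chains. In wild type it came also with a lower FPKM of Col18a1 itself (166 and 185 in controls, 92.4 and 109 after BDL). Under the Hmoxflfl label its FPKM overlapped between control and BDL. Col7a1, the chain of anchoring fibrils, Col13a1 and Col25a1, which are transmembrane, and Col8a2 were not called in either genotype, with log2 fold changes from -1.12 to 2.08; the highest, of Col8a2 in the libraries labelled Hmoxflfl, had an adjusted p of 0.0516.

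Summed by class and set against all counts other than RN45S, the members as a whole took 3564 and 4153 counts per M in wild-type controls and 6152 and 6323 after BDL. Among libraries labelled Hmoxflfl they took 2921 and 4750.2 in controls and 10188 and 10191 after BDL. Fibrillar chains accounted for 652 and 911 per M in wild-type controls and 2734 and 3020.2 after BDL, and for 587 and 1254 and then 5297 and 5551 in the libraries labelled Hmoxflfl. Without Col18a1 the sum over the other 43 members was 1305 and 1522 in wild-type controls, 4308 and 4266 in wild type after BDL, 1082 and 2144 in controls labelled Hmoxflfl and 8222 and 8402 after BDL in libraries labelled Hmoxflfl. In each of these count sums the BDL libraries lay above the controls, and both BDL libraries labelled Hmoxflfl lay above both of wild type. On the FPKM scale neither held for all members. There they summed to 307 and 342 in wild type after BDL, 96.3 and 295 in controls labelled Hmoxflfl, and 542 and 293 after BDL with that label. Fibrillar chains summed to 142 and 170 FPKM in wild type after BDL and 292 and 166 in BDL libraries labelled Hmoxflfl. The sums are weighted by abundant members and by transcript length, and were given no test.

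Basement membrane chains summed to 347 and 318 per M in wild-type controls and 814 and 656 after BDL, and to 243 and 509 and then 1579 and 1584 in the libraries labelled Hmoxflfl. The corresponding sums of beaded-filament chains were 82.9 and 84.3, then 424 and 353, and 69.9 and 133, then 847 and 783. FACIT chains overlapped in wild type, with 174 and 147 in controls against 260.1 and 163 after BDL, where the higher control exceeded the lower BDL library. In the libraries labelled Hmoxflfl they summed to 113 and 177 and then 357 and 352, without overlap.

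**Figure D3:**
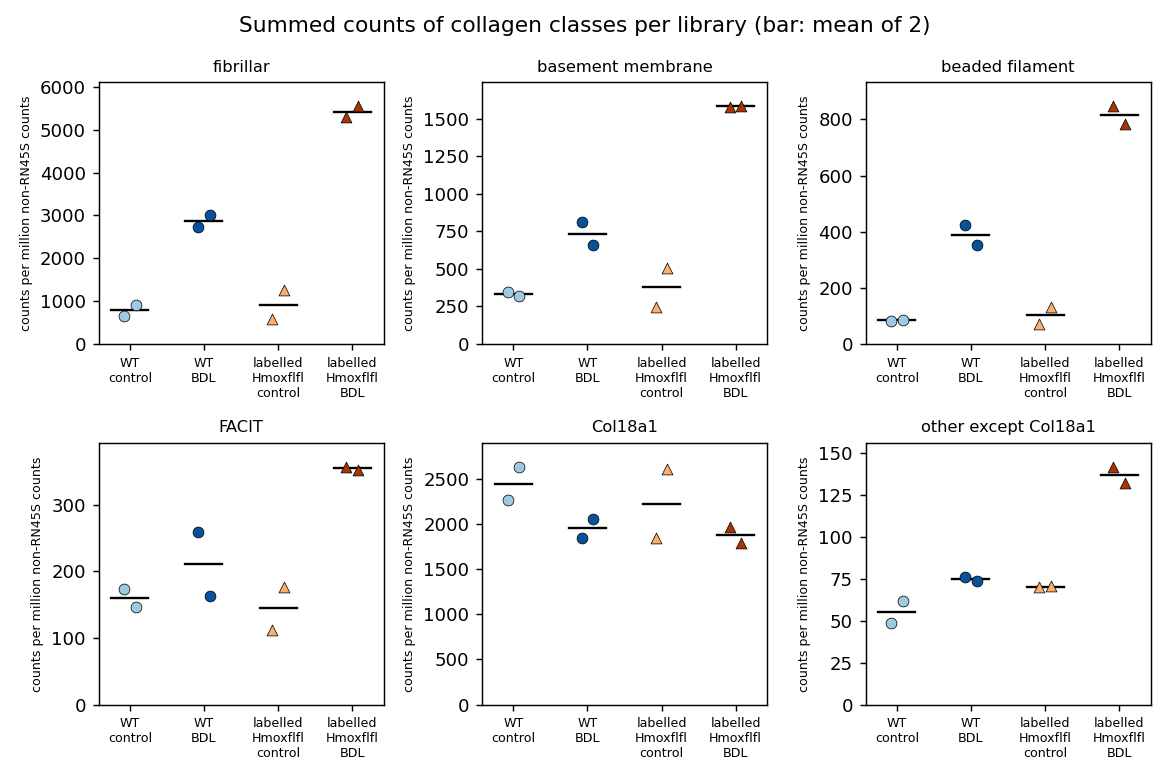
Summed counts of each collagen class per M counts other than RN45S, in each library (points) with the mean of the 2 libraries of a group (bar), on linear axes from 0. Fibrillar, basement membrane and beaded-filament chains step up from control to BDL and again from wild-type BDL to BDL labelled Hmoxflfl, and Col18a1 does not.

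Chains of one molecule, and Col3a1 with Col1a1 from different molecules, were compared within libraries, which needs no scaling between them. Type I collagen usually joins more alpha 1 than alpha 2 chains. By FPKM, the ratio of Col1a1 to Col1a2 was 0.588 and 0.761 in wild-type controls and 1.81 and 1.79 after BDL. With the Hmoxflfl label it was 0.760 and 0.795 in controls and 1.70 and 1.66 after BDL. All 4 controls thus had less Col1a1 than Col1a2 per length and all 4 BDL libraries more. From counts per kilobase of annotated exon the ratio was 1.27 and 1.64 in wild-type controls and 3.86 and 3.92 after BDL, and 1.65 and 1.73 and then 3.65 and 3.61 with the other label. The ratio's level, and which chain is in excess in controls, thus depends on the transcript length used, while on both scales all BDL libraries lay above all controls. The step was 1.41 on the log2 scale in wild type and 1.11 in the libraries labelled Hmoxflfl by FPKM.

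The ratio of Col3a1 to Col1a1 moved the other way, from 4.998 and 3.55 to 1.41 and 1.22 in wild type and from 3.28 and 3.15 to 1.21 and 1.20 in the libraries labelled Hmoxflfl, by FPKM. All 4 controls lay above all 4 BDL libraries. In type VI collagen the ratio of Col6a3 to Col6a1 went from 0.700 and 0.838 to 1.36 and 1.14 and from 0.619 and 0.589 to 1.18 and 0.863, again without overlap of control and BDL. Col6a1 to Col6a2 was 1.40 and 1.24 and then 1.21 and 1.49 in wild type, where the groups overlapped, and 1.50 and 1.34 and then 1.26 and 1.28 with the other label, without overlap. Col4a1 to Col4a2 was 1.20 and 1.34 and then 1.34 and 1.27 in wild type, with overlap, and 1.04 and 1.07 and then 1.35 and 1.31 with the other label, where both BDL libraries lay above both controls.

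**Figure D4:**
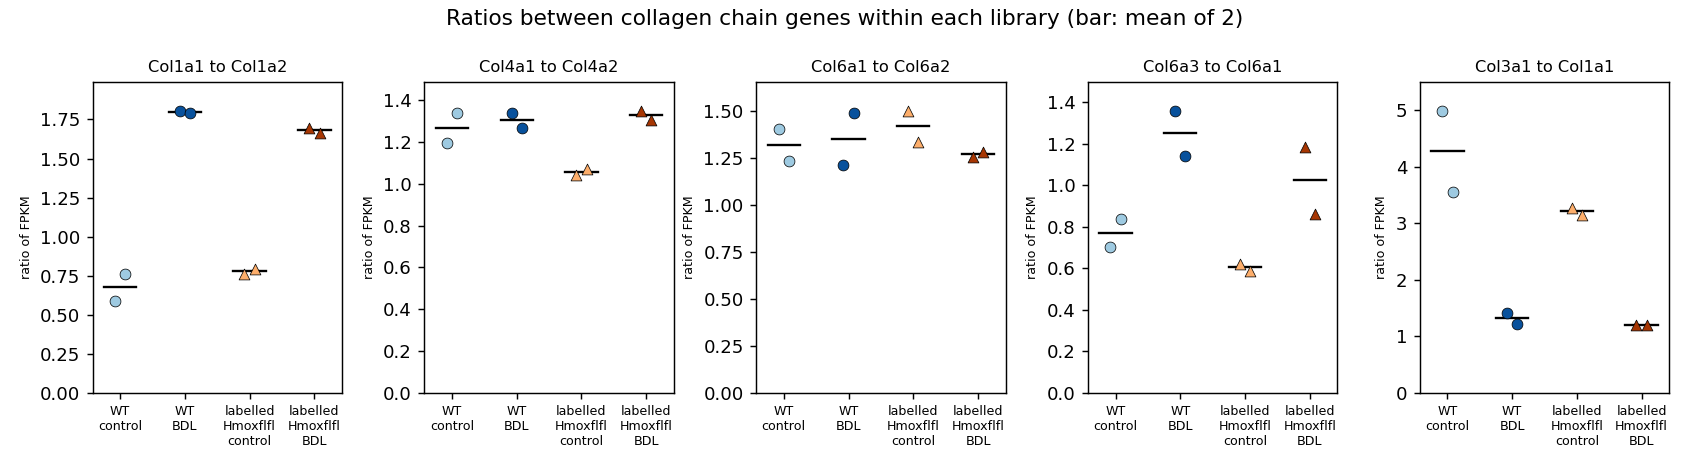
Ratios of FPKM between pairs of collagen chain genes within each library (points) with the mean of the 2 libraries of a group (bar), on linear axes from 0. Col1a1 to Col1a2 and Col6a3 to Col6a1 are higher in all BDL libraries than in all controls, Col3a1 to Col1a1 is lower, and Col4a1 to Col4a2 and Col6a1 to Col6a2 overlap between control and BDL in wild type but not in libraries labelled Hmoxflfl.

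The second pair of comparisons set the genotype labels against each other. In controls 0 of 35 members were called by edgeR (0.191% of all genes were called in either direction), and 3 had an unadjusted p under 0.05, 2 higher and 1 lower with the Hmoxflfl label (3.89% and 2.95% of all genes). The log2 difference was above 0 in 24 members and in 52.8% of all genes. The median log2 difference of the members was 0.19, beside 0.03 for all genes, and it turned negative with total-count scaling (-0.30) and on log2(FPKM + 1) (-0.13), whose medians over all genes were -0.51 and -0.41. It also turned on a single library: without the first control labelled Hmoxflfl the members' median was 0.52, and without the second -0.41. The member with the smallest p was Col20a1, at 14.4 and 21.4 CPM in wild-type controls and 5.001 and 5.25 CPM in controls labelled Hmoxflfl (-1.80 ± 0.38, adjusted p = 0.124). Its adjusted p ranged from 0.000218 to 0.661 over the alternatives. It was called lower by DESeq2, by limma on FPKM with 1 or 0.1 added, with no low-count filter, in a fit of these 2 groups alone, and without wild-type BDL 1 or wild-type BDL 2. In 3 members both controls labelled Hmoxflfl lay above both of wild type. They were, by edgeR, Col12a1 (1.09 ± 0.33, adjusted p = 0.456), Col15a1 (0.59 ± 0.22, adjusted p = 0.61) and Col11a2 (0.55 ± 0.32, adjusted p = 0.801). Below both lay 3 others, Col20a1, Col6a5 and Col8a2. These shares of the members were smaller than over all genes, where 23.4% lay higher and 3026 of 14147 lower, against 8.57% of members higher.

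After BDL 0 of 35 members were called by edgeR between the labels (0.0636% of all genes were). Of the 35, 34 had a log2 difference above 0, against 49.1% of all genes, and 19 had an unadjusted p under 0.05 with the higher level in the libraries labelled Hmoxflfl, against 5.39%, while 0 were lower, against 6.42%. In 23 members both libraries labelled Hmoxflfl lay above both of wild type, against 17.8% of all genes, and in 0 members below, against 20.5%. The median log2 difference of the members was 0.97 and that of all genes -0.01. With total-count scaling the medians were 0.27 and -0.69, so that the members kept about the same distance from all genes (0.95 against 0.98), and 27 of 35 lay above 0. Under that scaling 0 members had an unadjusted p under 0.05, and by limma on log2 FPKM 1 with 1 added and 0 with 0.1 added. Leaving out 1 library gave 12 to 21 such members, the fewest without the second BDL library labelled Hmoxflfl. Members measured in the same 4 libraries are not independent observations.

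The smallest adjusted p after BDL was that of Col15a1, with 28.2 and 22.7 CPM in wild type and 51.2 and 67.4 CPM in the libraries labelled Hmoxflfl (1.21 ± 0.22, adjusted p = 0.113). Col6a1 followed, at 48.1 and 41.9 against 99.9 and 142 CPM (1.42 ± 0.32, adjusted p = 0.187), and Col6a2, at 37.2 and 26.4 against 75.3 and 103 CPM (1.47 ± 0.35, adjusted p = 0.207). Col8a1 had the largest difference, 1.81 ± 0.47, adjusted p = 0.226. Col1a1 and Col1a2 differed by 1.19 ± 0.42 and 1.29 ± 0.39, Col4a1 and Col4a2 by 1.26 ± 0.36 and 1.23 ± 0.35, all without overlap and none called by edgeR. Col18a1, at 0.08 ± 0.33, and Col5a3, at 0.13 ± 0.38, overlapped, and Col20a1 was the one member below 0 (-0.40 ± 0.41).

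Whether members are called here depends on the processing. DESeq2, with its own scaling and filter, called 7 of them higher (Col1a2, Col4a1, Col4a2, Col6a1, Col6a2, Col6a3 and Col15a1). By edgeR without a low-count filter 9 were called, the same 7 with Col6a5 and Col8a1. Calls over all genes rose too: DESeq2 called 59 of 14083 higher and edgeR without the filter 85 of 18718, against 2 of 14147 in the main fit. Limma on FPKM called 0. Without wild-type BDL 1, the female library, which leaves 1 library in that group, the median difference of the members was 0.97 by edgeR. Over the alternatives the adjusted p of Col15a1 ran from 0.00239 to 0.865. RN45S took 37.1% and 18.8% of counts in wild type after BDL and 38.6% and 66.8% in the libraries labelled Hmoxflfl. With the RN45S share as a covariate the median difference of the members was 1.31, and 0 were called. Without the female and the shallowest library, which leaves 1 library in each BDL group and assumes that it varies like the others, the median was 0.90.

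**Figure D5:**
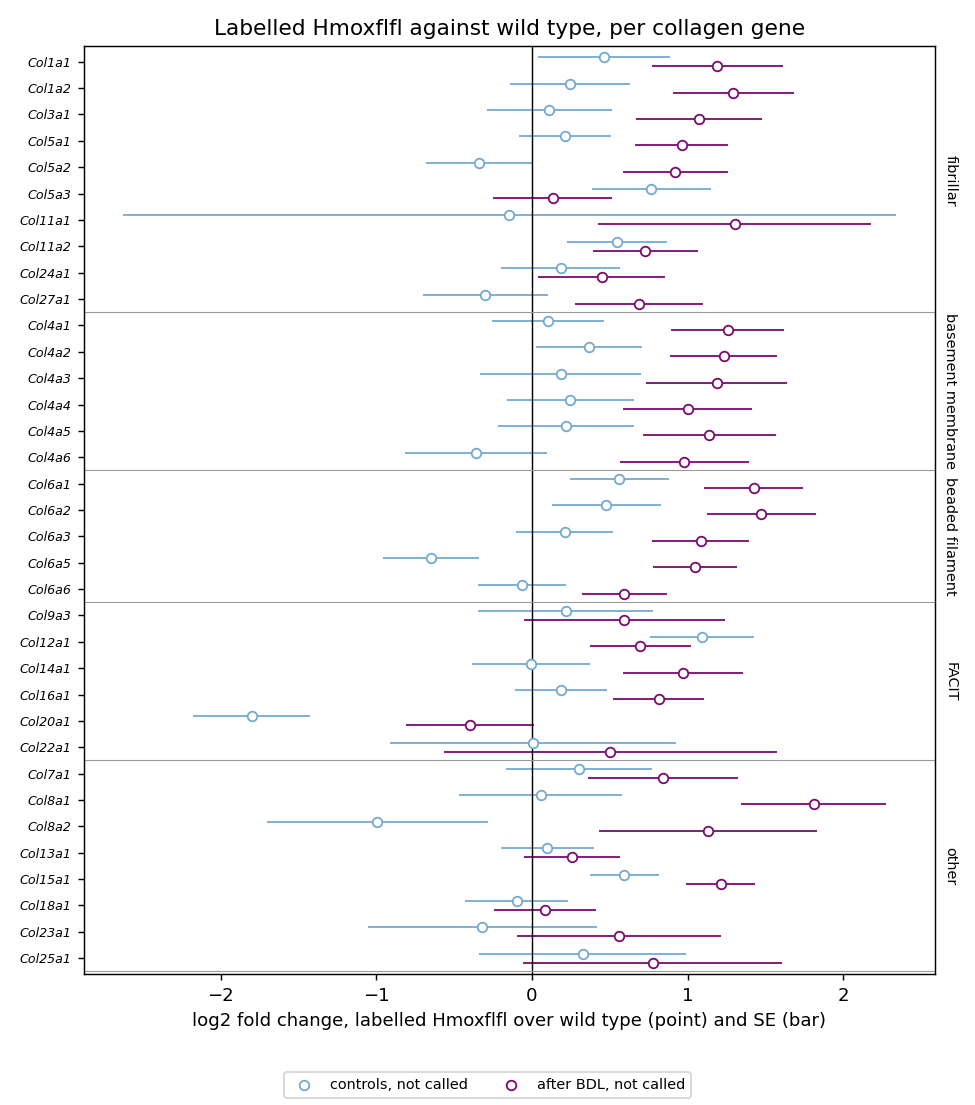
Log2 difference of libraries labelled Hmoxflfl over wild type (point) with its SE (bar) for the 35 tested collagen genes, in controls (light blue) and after BDL (purple). All points are open because none had an adjusted p under 0.05 by edgeR. After BDL 34 of 35 lie right of 0, and in controls 24 of 35 do, with Col20a1 farthest to the left.

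The difference between the 2 ligation responses was tested as an interaction, and 0 of 35 members were called (0.00707% of all genes were called in either direction). At an unadjusted p under 0.05 there were 5 members, all with the higher log2 fold change in the libraries labelled Hmoxflfl, against 3.03% of all genes in that direction and 6.28% in the other. Under total-count scaling 0 members had such a p. The count of 5 moved with single libraries. It was 1 without the first control labelled Hmoxflfl and 17 without the second, 2 without the second BDL library of that label, 3 without wild-type control 2 and 9 without wild-type BDL 1. Leaving out the first or the second control labelled Hmoxflfl gave members' medians of 0.47 and 1.45. DESeq2 and limma on FPKM called 0. A log2 difference above 0 was seen in 33 of 35 members, against 48.6% of all genes, and the medians were 0.86 and -0.02. Col6a5, low in controls labelled Hmoxflfl and high after BDL in that label, had the smallest p (1.70 ± 0.41, adjusted p = 0.35), and was called with no low-count filter and without the female and the shallowest library. The other 4 were Col5a2 (1.26 ± 0.48), Col4a1 (1.16 ± 0.51), Col20a1 (1.41 ± 0.55) and Col8a1 (1.75 ± 0.70). The larger count of calls in the libraries labelled Hmoxflfl (23 against 17 higher) is therefore not shown to be a difference in response.

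Genes that act on collagen chains were taken from 7 lists of known collagen biology. For the counts of calls in these lists, the shares over all genes were 11.8% higher and 6.59% lower in wild type. They were 15.1% and 12.4% in the libraries labelled Hmoxflfl. In wild type and in the libraries labelled Hmoxflfl the median log2 fold changes on BDL were 0.51 and 0.61 for modification and folding, 0.68 and 1.22 for procollagen processing, 1.39 and 2.34 for crosslinking, and 1.42 and 2.12 for fibril regulators. For degradation and its inhibitors they were 1.67 and 1.94, for receptors 0.77 and 0.66, and for TGF-β signalling 0.98 and 0.60, beside 0.02 and -0.03 for all genes. Enzymes and chaperones that modify and fold the chains (18 tested) had 5 higher and 1 lower calls in wild type and 7 higher and 1 lower in the libraries labelled Hmoxflfl. Serpinh1, the collagen chaperone HSP47, rose from 8.73 and 8.17 to 20.7 and 14.7 CPM in wild type (1.07 ± 0.27, adjusted p = 0.0175) and from 5.94 and 6.99 to 30.6 and 48.3 CPM in the libraries labelled Hmoxflfl (2.59 ± 0.28, adjusted p = 0.000156). Fkbp10, a prolyl isomerase that helps type I collagen to fold, rose by 1.77 ± 0.34 and 3.04 ± 0.35, and P3h3, of the prolyl 3-hydroxylase family, by 1.02 ± 0.33 and 2.04 ± 0.34. Crtap, which acts with that family, had 0.84 ± 0.34, adjusted p = 0.108 in wild type and 1.85 ± 0.36, adjusted p = 0.00344 in the libraries labelled Hmoxflfl.

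Proteases that trim procollagen and their enhancers (6 tested of 8) had 2 higher and 0 lower calls in wild type. With the other label they had 3 higher and 0 lower. Adamts2, which removes the amino-terminal end, went from 6.25 and 6.91 to 26.2 and 19.5 CPM (1.80 ± 0.25) and from 6.50 and 9.23 to 40.7 and 39.7 CPM (2.35 ± 0.25). Pcolce, which enhances removal of the carboxy-terminal end, rose by 1.12 ± 0.34 and 1.64 ± 0.34, and Bmp1, the protease it enhances, was not called (-0.70 ± 0.23, adjusted p = 0.0565, and -0.33 ± 0.23, adjusted p = 0.31). Of the 5 crosslinking enzymes of the lysyl oxidase family 3 rose in wild type and 4 in the libraries labelled Hmoxflfl. Lox went from 0.251 and 0.289 to 4.36 and 4.59 CPM (4.02 ± 0.46, adjusted p = 0.000314) and from 0.171 and 0.402 to 6.81 and 11.1 CPM (4.79 ± 0.46, adjusted p = 8.44e-05), and Loxl1 and Loxl2 rose by 2.25 ± 0.52 and 1.39 ± 0.37 in wild type.

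Of 8 proteins that sit on or steer fibrils, 5 rose in wild type and 6 in the libraries labelled Hmoxflfl. Sparc, which binds collagen in the matrix, went from 33.03 and 35.95 to 154 and 67.1 CPM in wild type (1.68 ± 0.36) and from 26.2 and 38.7 to 183 and 242 CPM in the libraries labelled Hmoxflfl (2.71 ± 0.38). The small proteoglycan Lum rose by 1.96 ± 0.46 and 2.67 ± 0.47, and Thbs2 by 1.81 ± 0.50 and 3.18 ± 0.53. Collagen-degrading enzymes, uptake receptors and inhibitors (14 tested) had 9 higher and 0 lower calls in wild type and 9 higher and 0 lower with the other label. They included Mmp2, a gelatinase (2.02 ± 0.38 and 2.94 ± 0.39), Mrc2, a collagen uptake receptor (2.33 ± 0.29 and 3.19 ± 0.29), and the protease inhibitors Timp1, at 0.0314 and 0.0322 CPM in wild-type controls and 2.92 and 1.69 CPM after BDL, and Timp2 (1.46 ± 0.31 and 2.33 ± 0.32). The wild-type control values of Timp1 are 1 count each. Of the wild-type libraries, only those after BDL could count toward its passing of the low-count filter.

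Cell-surface receptors of collagen (8 tested of 9) had 3 higher and 0 lower calls in wild type and 4 higher and 1 lower in the libraries labelled Hmoxflfl. Ddr1, a receptor tyrosine kinase of epithelia, went from 1.70 and 1.32 to 13.9 and 15.8 CPM in wild type (3.29 ± 0.33, adjusted p = 0.000167), and the integrin chain Itga2 from 0.188 and 0.579 to 6.26 and 3.93 CPM (3.73 ± 0.54, adjusted p = 0.00103). Itga11, an integrin chain of fibroblasts, was called higher in the libraries labelled Hmoxflfl (2.74 ± 0.53, adjusted p = 0.00341; in wild type 1.20 ± 0.53, adjusted p = 0.147), where Itga10 was called lower (-1.32 ± 0.35, adjusted p = 0.0169). Among 13 genes of the TGF-β pathway, the main inducer of collagen genes, 8 higher and 0 lower were called in wild type and 6 higher and 1 lower with the other label. The ligands Tgfb1 (1.43 ± 0.26 and 1.80 ± 0.27) and Tgfb2 (2.67 ± 0.39 and 2.64 ± 0.39) and the target Ccn2 (1.43 ± 0.32 and 2.98 ± 0.34) rose in both genotypes. Between the labels after BDL 0 genes of these 7 lists were called by edgeR, with 19 higher and 2 lower of 72 tested at an unadjusted p under 0.05 (5.39% and 6.42% of all genes), and their medians ran from 0.21 (modification and folding) to 0.93 (fibril regulators).

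Markers of the cells known to make collagen did not all rise with the members. Beside the counts below, 11.8% of all genes were called higher and 6.59% lower in wild type, and 15.1% and 12.4% in the libraries labelled Hmoxflfl. Of 8 tested portal fibroblast markers 6 rose in wild type and 8 in the libraries labelled Hmoxflfl, and the 10 on the list summed to 20.8 to 22.999 per M in wild-type controls, 87.8 to 97.7 in wild type after BDL, 14.4 to 29.8 in controls labelled Hmoxflfl and 121 to 123 after BDL in libraries labelled Hmoxflfl, with Gli1 and Clec3b at 0 to 0.418 CPM. The 7 myofibroblast markers (5 tested, 2 and 3 called higher) summed to 18.5 to 22.5 per M in wild-type controls, 44.01 to 48.4 in wild type after BDL, 12.7 to 25.9 in controls labelled Hmoxflfl and 65.8 to 91.1 after BDL in libraries labelled Hmoxflfl. Among them Acta2, the smooth muscle actin of myofibroblasts, went from 2.26 and 2.99 to 6.49 and 6.83 CPM in wild type (1.34 ± 0.39) and from 1.07 and 2.52 to 17.1 and 9.97 CPM in the libraries labelled Hmoxflfl (2.91 ± 0.41), and Cnn1 was at 0 to 0.658 CPM. Of 10 stellate cell markers 1 rose and 3 fell in wild type, and 2 rose and 3 fell in the libraries labelled Hmoxflfl, with median log2 fold changes near 0 and of 0.29. They summed to 352 to 396 per M in wild-type controls, 282 to 425 in wild type after BDL, 339.7 to 377 in controls labelled Hmoxflfl and 407 to 488 after BDL in libraries labelled Hmoxflfl, so that control and BDL overlapped in wild type. Pdgfrb, the receptor by which stellate cells respond to PDGF, was called higher in both (1.25 ± 0.27 and 2.18 ± 0.27), and Hhip, Ecm1 and Vipr1 were called lower.

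Markers of bile duct cells and of macrophages also rose. Cholangiocyte markers were called higher in 8 of 8 in wild type and 7 of 8 in the libraries labelled Hmoxflfl, with a sum of 10 genes of 38.8 to 53.6 per M in wild-type controls, 362 to 817 in wild type after BDL, 39.7 to 51.8 in controls labelled Hmoxflfl and 755 to 1585 after BDL in libraries labelled Hmoxflfl. Monocyte and macrophage markers were called higher in 8 of 9 in both genotypes, with sums of 51.1 to 73.5 per M in wild-type controls, 359 to 888 in wild type after BDL, 43.5 to 49.7 in controls labelled Hmoxflfl and 846 to 1724 after BDL in libraries labelled Hmoxflfl. Between the labels after BDL the median log2 differences were 0.78 for portal fibroblast, 0.82 for myofibroblast, 0.26 for stellate cell, 1.02 for monocyte and macrophage, and 0.00 for cholangiocyte markers, beside 0.97 for the collagens. The part of cell numbers, of RNA from untagged cells or of the RN45S share in the collagen values was not tested. Lyz2, given above, was the 1 marker of these lists called between the labels after BDL. Spp1 is on both the cholangiocyte and the macrophage list. Over the BDL libraries, wild type first, the macrophage list summed to 888, 359, 846 and 1724 per M. The cholangiocyte list summed to 817, 362, 755 and 1585 in the same order. The part of Spp1 in these sums was not tested.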

How the data were processed

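Ribosome-associated RNA of mouse liver was sequenced after depletion of ribosomal RNA with stranded KAPA libraries, per the labels' protocols. The authors deposited STAR 2.7.3a counts per gene symbol and Cufflinks FPKM values (build mm10, per the submitters' processing notes); the counting strand and annotation release are not given in the sources used here. The counts were used as deposited, and the FPKM values served for levels per length, chain ratios and alternatives. No library without Cre and no input RNA was analysed here.

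Genes were kept by filterByExpr and scaled by TMM, and a robust quasi-likelihood model (edgeR 4.0.16, R 4.3.3) was fitted to 4 group means of 2 libraries, with 4 residual degrees of freedom. Contrasts (5) tested ligation within each label, the labels within controls and within BDL, and the interaction. Tests were two-sided, with Benjamini-Hochberg adjustment over 14147 genes and calls at 0.05. The SE is the absolute log2 fold change over the square root of F. Positions came from GENCODE vM21 and sequences from RefSeq. The tests were tested on simulated data. Across genes, Pearson's r between the 2 libraries of a group was 0.969 to 0.990 (log2 CPM), and their counts differed beyond sampling noise (chi-squared divided by its degrees of freedom: 83.2 to 739). The latter values include RN45S, whose share differed between the libraries of a group, and its part in them was not tested.

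The members, gene lists and marker lists were chosen with earlier results of these data known. All collagen genes could be named, and of each other list up to 4 tested genes with the smallest adjusted p in either BDL contrast. Alb, Ly6c2, Lyz2, Spp1, Gli1, Clec3b and Cnn1 fall outside this rule and were named after their values were seen. A gene that the rule would name is not reported here. A single list gene, Ccn2, was matched by an older symbol. Alternatives were DESeq2 1.42.0, total-count scaling, RN45S left out, no low-count filter, limma 3.58.1 on log2 FPKM with 1 or 0.1 added, fits of the compared groups alone and leaving out each library. A covariate for RN45S and a fit lacking the female library and that with the fewest counts were chosen after seeing the data.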

Additional observations from a re-analysis of the deposited data

How the results depend on the processing

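With 2 libraries per group and 4 residual degrees of freedom, calls near the threshold depend on the processing. No paired analysis was possible because the labels give no replicate numbers that link libraries across groups. Of the members called in wild type, 9 of 19 held in each of the 8 fits without 1 library and 1 (Col1a1) in all alternatives. Of those called in the libraries labelled Hmoxflfl, 18 of 23 held in the 8 fits and 5 (Col1a1, Col1a2, Col3a1, Col6a3 and Col8a1) in all alternatives. No called member changed sign under any alternative.

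The 19 calls on BDL in wild type became 7 with total-count scaling (7 higher), 7 by limma on log2(FPKM + 1) (5 higher and 2 lower), 5 with 0.1 added (4 and 1) and 2 with no filter (1 and 1). The 23 calls in the libraries labelled Hmoxflfl became 14, 13, 13 and 5 in the same order, all higher. Calls over all genes fell as well in these settings. In wild type they went from 2607 of 14147 to 550 of 14147, 614 and 489 of 13592 and 262 of 18372. With the Hmoxflfl label they went from 3895 to 918, 743, 846 and 229. Total-count scaling moved the median of all genes to -0.12 in wild type and -0.31 in the libraries labelled Hmoxflfl. Relative to it, the members' median was 1.37 and 2.15, against 1.42 and 2.11 with TMM. Between genotype labels in controls, 0 calls became 1 by DESeq2, 2 with no low-count filter, 1 by limma with 1 or 0.1 added, 1 in the groups compared alone and 1 without the female library and the one of fewest counts. After BDL, 0 became 7 by DESeq2 and 9 with no low-count filter, and for the interaction 0 became 1 with no low-count filter. Over all genes the calls rose too. Between labels after BDL they went from 9 of 14147 to 149 of 14083 by DESeq2 and 206 of 18718 with no low-count filter. In controls they went from 27 of 14147 to 99 of 15866 and 126 of 18718. For the interaction they went from 1 to 79 of 12657 and 138 of 18718. The cause of these changes was not tested. Leaving out 1 library gave 10 to 19 calls on BDL in wild type, 19 to 24 in the libraries labelled Hmoxflfl, 0 to 1 between labels in controls, 0 to 3 after BDL and 0 to 0 for the interaction.

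Class sums taken on the FPKM scale gave smaller log2 ratios of BDL to control in wild type. All members had 0.25 in place of 0.69, basement membrane chains 0.64 in place of 1.14, beaded-filament chains 1.59 in place of 2.22, FACIT chains -0.19 in place of 0.40 and the other chains -0.78 in place of -0.30. The other chains without Col18a1 reversed, to -0.10 from 0.43, and in the libraries labelled Hmoxflfl had 0.69 in place of 0.96. On the count scale the FACIT ratio in wild type ran from 0.02 to 0.70 when 1 library was left out, lowest without wild-type BDL 1, the other chains without Col18a1 in wild type from 0.27 to 0.62, lowest without wild-type control 1, and the other chains in the libraries labelled Hmoxflfl from -0.41 to 0.08, lowest without the first control of that label. Without 1 library the log2 ratio of the fibrillar sum ran from 1.66 to 2.14 in wild type and from 2.11 to 3.21 in the libraries labelled Hmoxflfl, and the step in Col1a1 to Col1a2 from 1.24 to 1.61 and from 1.08 to 1.15.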

Other observations

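Other markers in the same libraries gave the following values. Of all genes 11.8% were called higher and 6.59% lower in wild type, and 15.1% and 12.4% in the libraries labelled Hmoxflfl. In a list of 10 a count of 1 or 2 is near these shares. Of 10 endothelial markers 0 were called in wild type and 2, Vwf (1.83 ± 0.32) and Cdh5 (0.91 ± 0.28), were called higher on BDL in the libraries labelled Hmoxflfl, and their sum was 779 to 891 per M in wild-type controls, 708 to 949 in wild type after BDL, 629 to 718 in controls labelled Hmoxflfl and 739 to 1033 after BDL in libraries labelled Hmoxflfl. At an unadjusted p under 0.05 by edgeR there were 2 such markers in wild type, both higher, as were 2615 of all 14147 genes. Of 10 hepatocyte markers 5 fell in wild type and 1 in the libraries labelled Hmoxflfl, Cyp2e1 being called lower in both (-2.34 ± 0.39 and -2.20 ± 0.39). Of 10 Kupffer cell markers 2 rose in wild type, and 5 rose and 1 fell in the libraries labelled Hmoxflfl, with Marco, a scavenger receptor, at 2.43 ± 0.32 and 2.19 ± 0.31. Neutrophil markers (5 tested of 10) had 2 called higher in each genotype. Mesothelial markers, of the cells that cover the liver surface, summed to 2.21 to 2.49 per M in wild-type controls, 6.43 to 6.84 in wild type after BDL, 1.60 to 2.34 in controls labelled Hmoxflfl and 12.1 to 16.3 after BDL in libraries labelled Hmoxflfl, with 1 of 3 tested called higher in each genotype (Msln, 1.39 ± 0.41 and 3.45 ± 0.44).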
